A study of Mus musculus with 16 samples.

Results

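Ribosome biogenesis genes encode the machinery that makes ribosomes: the enzyme that transcribes ribosomal RNA, the particles that modify it, and the factors that cut, fold and assemble it into subunits. A list of 41 such genes was taken by name, with Myc and Mycn included as transcription factors known to drive many of them. For 40 of the 41, the array annotation held at least 1 probe set naming that gene alone, out of 18193 genes measured in this way. The remaining gene, Mrto4, was not used, because its only probe set is annotated to pseudogenes as well. Each gene was read through its brightest such probe set. By role the 40 genes comprised 9 of the small nucleolar ribonucleoproteins (snoRNPs), 11 large subunit factors, 10 small subunit factors, nucleolin and nucleophosmin, 6 of the RNA polymerase I machinery, and Myc and Mycn.

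The samples were total RNA from mouse blastocysts, in 4 groups of 3 samples. The groups were blastocysts treated with 20 µM SB203580, with 25 µM SP600125 or with 20 µM U0126, and a control group titled WT, for which the labels name no treatment; they do not say whether the controls received solvent. Of these compounds, SB203580 acts on p38 kinases, SP600125 on JNK kinases, and U0126 on MEK, which lies upstream of ERK. The sources used here do not give strain, alleles beyond the title WT, embryo age, length of treatment or number of embryos. Replicate 1 of each group was read on a 430A and a 430B Affymetrix array after small sample labelling, and replicates 2 and 3 on 430 2.0 arrays after two-cycle labelling. Values are linear signal, scaled by the authors on each array, and are comparable only within a probe set and an array type. Nothing in the labels ties replicates to separate cultures, and p-values therefore reflect the scatter among these samples, which may be technical.

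In the nucleolus, RNA polymerase I transcribes a long precursor that holds most of the ribosomal RNAs. Box C/D snoRNPs methylate this precursor and box H/ACA snoRNPs convert uridines to pseudouridine, while the small subunit processome and the large subunit factors direct its cleavage and assembly with ribosomal proteins. Mouse embryos build working nucleoli during cleavage, and loss of many of these factors stops development before or around implantation.

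The promoter windows of these genes are shown first, because Myc read low with SP600125 and Mycn with SB203580. Their fitted log2 changes were -0.60 and -0.43 there, and between -0.15 and -0.06 with the other inhibitors. Neither change passed limma's moderated test, described below (adjusted p = 0.451 and 0.164). The Myc change with SP600125 was -0.34 without control replicate 3. RefSeq windows of GRCm38.p6, from 250 bases before to 50 bases after the transcription start, were matched for 34 of the 40 genes. A gene was counted when any of its windows held the motif. The Myc E-box CACGTG, which reads the same on both strands, was present for 7 of the 34 genes, or 20.6%. It was present for 8.09% of all 27025 genes with a window (7.15% of all 32851 single windows). Of the 10196 genes tested on the arrays that had a window, 11.5% held it. Ets factors are targets of ERK, and their core motif CCGGAAG or its complement CTTCCGG was present for 14 of the 34 genes, or 41.2%. The shares were 9.93% of all genes with a window (8.86% of single windows) and 19.2% of the array genes. The letters of the 2 motifs do not overlap. The lines below give 30 bases along the gene's strand around each E-box, with the motif in capitals. They then give an Ets motif of 4 of the 14 genes, as examples. A further Ets motif of Nip7 is not printed. A match is a description of letters and shows no binding.
Ltv1 (chr10:13193092-13193121, minus strand): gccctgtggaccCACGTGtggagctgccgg
Nop2 (chr6:125131811-125131840, plus strand): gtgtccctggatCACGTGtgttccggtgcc
Pes1 (chr11:3963965-3963994, plus strand): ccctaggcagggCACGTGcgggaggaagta
Rrn3, first E-box (chr16:13780472-13780501, plus strand): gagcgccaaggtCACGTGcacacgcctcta
Rrn3, second E-box (chr16:13780639-13780668, plus strand): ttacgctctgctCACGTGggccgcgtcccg
Tsr1 (chr11:74898092-74898121, plus strand): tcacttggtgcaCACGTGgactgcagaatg
Utp20 (chr10:88826765-88826794, minus strand): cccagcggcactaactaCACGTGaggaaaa
Wdr43 (chr17:71616220-71616249, plus strand): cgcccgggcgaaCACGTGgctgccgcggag
Polr1c, Ets motif (chr17:46248069-46248098, minus strand): ccacttgacgtCCGGAAGtgaaggacgtgg
Nhp2, Ets motif (chr11:51619739-51619768, plus strand): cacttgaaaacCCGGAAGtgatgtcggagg
Gar1, Ets motif (chr3:129831421-129831450, minus strand): gcgccgccacaCTTCCGGaaacgtcgcgta
Nip7, Ets motif (chr8:107056763-107056792, plus strand): gctttcggtccCCGGAAGtccgccacggta

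No ribosome biogenesis gene passed the test for any inhibitor against control. In limma's moderated test, with Benjamini-Hochberg adjustment over all probe sets tested, 0 of 40 genes were called with SB203580, 0 with SP600125 and 0 with U0126. Over all 12614 genes tested, 0.634% were called with SB203580, 0.904% with SP600125 and 0.658% with U0126. At an unadjusted p under 0.05 the counts were 3, 5 and 5 of the 40, and the shares of all genes tested were 11.4%, 10.2% and 13.4%. The genes' smallest adjusted p-values were 0.158, 0.176 and 0.112.

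The 40 genes all read well above the level used to filter signals. A limit at the top of the signal range was not examined. Their control signals on the 430 2.0 arrays ran from 603.9 to 33440.1, and all 40 passed the signal filter of 42.9, as did 69.3% of all genes. The 2 control arrays of that type differed by a median of 0.15 on the log2 scale over the 40 genes, and by 0.27 over all genes tested. Myc had the widest gap between these controls, 0.65. Over the 8 arrays of that type, the gap between the highest and lowest sample was narrowest for Nhp2, at 0.22, and widest for Myc, at 1.17. Standard errors of the fitted log2 changes ran from 0.09 to 0.33, with a median of 0.15.

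These errors give an interval for the change of the brightest probe set of each gene, and other probe sets are not covered by it. With SB203580, for example, a dimmer Bop1 probe set gave 1.39 ± 0.62, against 0.15 ± 0.16 for the brightest. The 95% interval of the brightest probe set lay within 2-fold in either direction for 39 of 40 genes with SB203580, 38 with SP600125 and 40 with U0126. It lay within 1.5-fold for 35, 33 and 32 of them. The exceptions at 2-fold were Polr1b with SB203580, and Rrp9 and Myc with SP600125. The median change over the 40 genes was -0.01 with SB203580, -0.09 with SP600125 and 0.01 with U0126, beside 0.01, 0.00 and 0.05 over all genes tested. With arrays centred on their medians the U0126 values became -0.14 for the 40 genes and -0.10 for all genes, so the 2 shifted together. In bulk RNA from whole blastocysts, fewer cells of a type and less RNA per cell cannot be told apart.

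**Figure D1:**
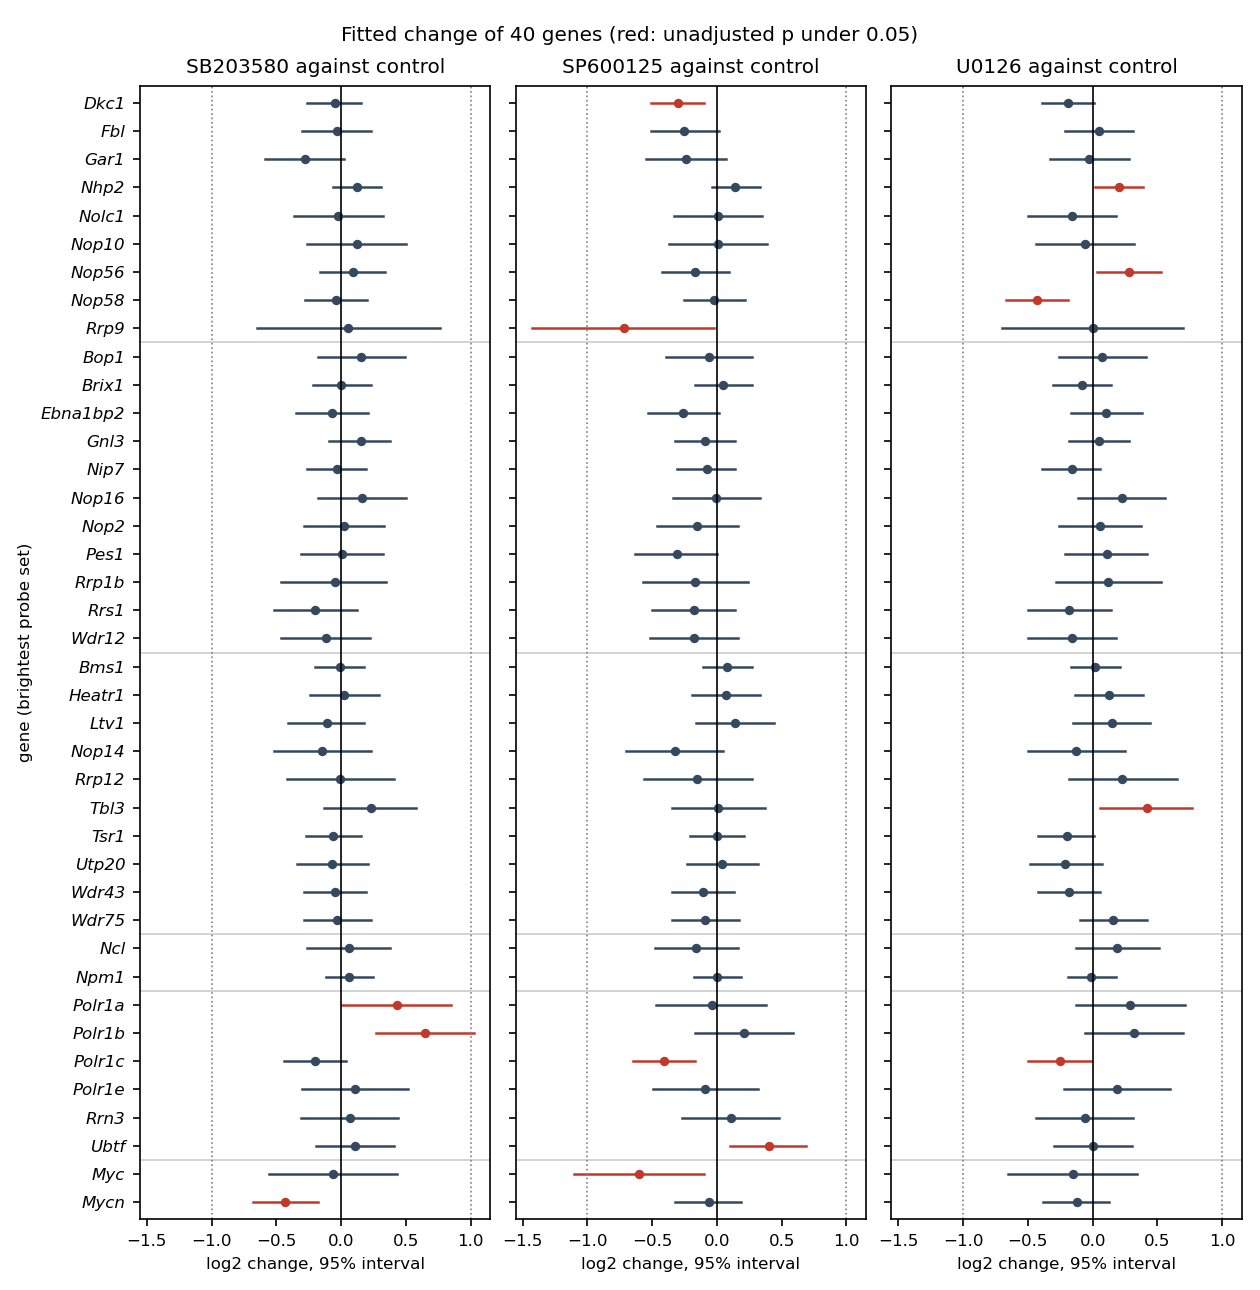
Fitted log2 change of each of the 40 genes (rows, grouped by role) with its 95% interval, for each inhibitor against control (n = 3 samples per group); dotted lines mark a 2-fold change and red marks an unadjusted p under 0.05. Nearly all points lie close to 0, and intervals reach past 2-fold only for Polr1b with SB203580 and for Rrp9 and Myc with SP600125.

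Genes were also counted by whether all 3 treated samples deviated in 1 direction, and whether the groups overlapped. All 3 samples lay on the same side of the control mean for 12 of 40 genes with SB203580 (7 higher, 5 lower), 20 with SP600125 (4 higher, 16 lower) and 16 with U0126 (7 higher, 9 lower). The shares of all genes tested were 20.8% higher and 20.4% lower for SB203580. They were 20.3% higher and 20.1% lower for SP600125, and 21.5% higher and 15.2% lower for U0126. A gene is counted as not overlapping when the treated sample of replicate 1 lay beyond the control of replicate 1 and both treated samples on 430 2.0 arrays lay beyond both controls, in 1 direction. With SB203580, 6 of 40 genes lay wholly above the controls, where 12.7% of all genes did, and 2 lay wholly below, where 13.7% did. With SP600125, 4 lay above, beside 12% of all genes, and 10 of 40 (25%) lay below, beside 13.2%. The 10 were Dkc1, Gar1, Pes1, Wdr12, Rrp1b, Ebna1bp2, Nip7, Wdr43, Polr1c and Myc. With U0126, 4 lay above, beside 14.4%, and 8 of 40 (20%) lay below, beside 9.99%. The shares below the controls with SP600125 and U0126 were thus larger than those of all genes. With genes chosen by name no test of the list was made. The counts use the deposited scaling, under which the 430 2.0 arrays of U0126 had median signals of 77.7 and 83, against 61.1 and 65.7 in the controls. The part of scaling in the U0126 counts was not tested.

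The snoRNP proteins include the methyltransferase fibrillarin (Fbl) and its partners Nop56 and Nop58 in the box C/D particles. Replicates 1, 2 and 3 are given in that order from here on. Nop58 read 2165, 4190.4 and 3754 in the controls, 2365, 3885 and 3419.7 under SB203580, 2342, 3841 and 3658 under SP600125, and 1714, 2862 and 2814 under U0126. The U0126 samples were the lowest on both array types and overlapped no other group. The fitted change with U0126 was -0.43 ± 0.11 (SE), with a 95% interval of -0.67 to -0.19. Its adjusted p in limma's test was 0.112, the smallest among the 40 genes against control. Over 21 settings of the processing, the reported one included, the value stayed between -0.58 and -0.36.

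Nop56, which forms the scaffold of the same particle together with Nop58, showed another order of samples. Nop56 read 1962, 12189 and 9704 in the controls, 2187, 12019 and 10724 under SB203580, 1712, 10223 and 9378 under SP600125, and 2863, 12237 and 11812 under U0126. The U0126 samples were high and the SP600125 samples low, but each overlapped the controls on the 430 2.0 arrays. The fitted change with U0126 was 0.28 ± 0.12 (adjusted p = 0.362). It was 0.15 without U0126 replicate 1, whose 430A array also had the lowest ratio of 3' to 5' actin signal of the 4, 1.62 against 2.47 in the control, and the lowest GAPDH ratio, 2.61 against 4.03. The part of RNA quality in this result was not tested. The other Nop56 probe set gave 0.12 ± 0.13 with U0126. For Fbl the changes were -0.03 ± 0.12, -0.25 ± 0.12 and 0.05 ± 0.12 with SB203580, SP600125 and U0126.

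Dyskerin (Dkc1) is the pseudouridine synthase of the box H/ACA particles, and Gar1, Nhp2 and Nop10 are its partners. Dkc1 read 27622, 10182 and 9163 in the controls, 27059.9, 8925 and 9520.2 under SB203580, 20099, 8616 and 7897 under SP600125, and 25202, 8428 and 8211 under U0126. The SP600125 and U0126 samples lay below the controls on both array types. The change with SP600125 was -0.30 ± 0.10 (95% interval -0.51 to -0.10, adjusted p = 0.268), and with U0126 it was -0.19 ± 0.10. All 3 Dkc1 probe sets gave negative values with SP600125. The lowest of them gave -0.87 ± 0.23 (adjusted p = 0.149).

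Its partners did not share one direction. Gar1 read 2132, 3243 and 3075 in the controls, 1992, 2120.3 and 2778 under SB203580, 1554, 2861 and 2886 under SP600125, and 2146, 2747 and 3422 under U0126. The SB203580 samples lay below the controls, with a change of -0.28 ± 0.15 (adjusted p = 0.579). This change became -0.13 without SB203580 replicate 2, the lowest sample on its array type. The SP600125 samples of Gar1 also lay below, as those of Dkc1 did, with a change of -0.24 ± 0.15 (adjusted p = 0.727). Nhp2, in contrast, lay above the controls with each inhibitor. Nhp2 read 4135, 15810.1 and 14838 in the controls, 4886, 16169 and 15844 under SB203580, 5038, 16035 and 16136 under SP600125, and 5119, 17277 and 16697 under U0126. The differences were small, at 0.12 ± 0.09, 0.14 ± 0.09 and 0.20 ± 0.09. The U0126 value was 0.05 with arrays centred on their medians. The other Nhp2 probe set gave 0.31 ± 0.17, 0.12 ± 0.17 and 0.41 ± 0.17.

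Rrp9, a protein of the U3 snoRNP, held the largest fitted difference of the list, and 1 sample decided it. Rrp9 read 632, 969.9 and 698 in the controls, 816, 804 and 729 under SB203580, 176, 810.2 and 634 under SP600125, and 806, 841 and 633 under U0126. Only replicate 1 with SP600125 stood apart, and the groups overlapped on the 430 2.0 arrays. The change with SP600125 was -0.72 ± 0.33 (adjusted p = 0.57), and -0.09 without that sample. The 430A array of that sample had the highest ratio of 3' to 5' actin signal, 3.66, where 430 2.0 arrays had 1.58 to 1.75. Its GAPDH ratio, 3.46, was below that of the replicate 1 control, 4.03, and the part of RNA quality or labelling in the value was not tested. Nolc1, a nucleolar chaperone of snoRNPs, gave -0.02 ± 0.16, 0.01 ± 0.16 and -0.16 ± 0.16 through its brightest probe set.

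Over the 9 snoRNP genes the median change was -0.02 with SB203580, -0.17 with SP600125 and -0.03 with U0126. Sample by sample, the medians of the 3 SP600125 samples were -0.20, -0.05 and -0.18, and those of the SB203580 samples were 0.16, -0.03 and -0.17. In replicate 3, 8 of the 9 genes read below the control mean with SP600125, and 8 of 9 also did with SB203580. Of all genes tested, 49.5% and 47.2% read below the control mean in these 2 samples. The medians of the U0126 samples were 0.23, -0.19 and 0.06, so they had no common direction.

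**Figure D2:**
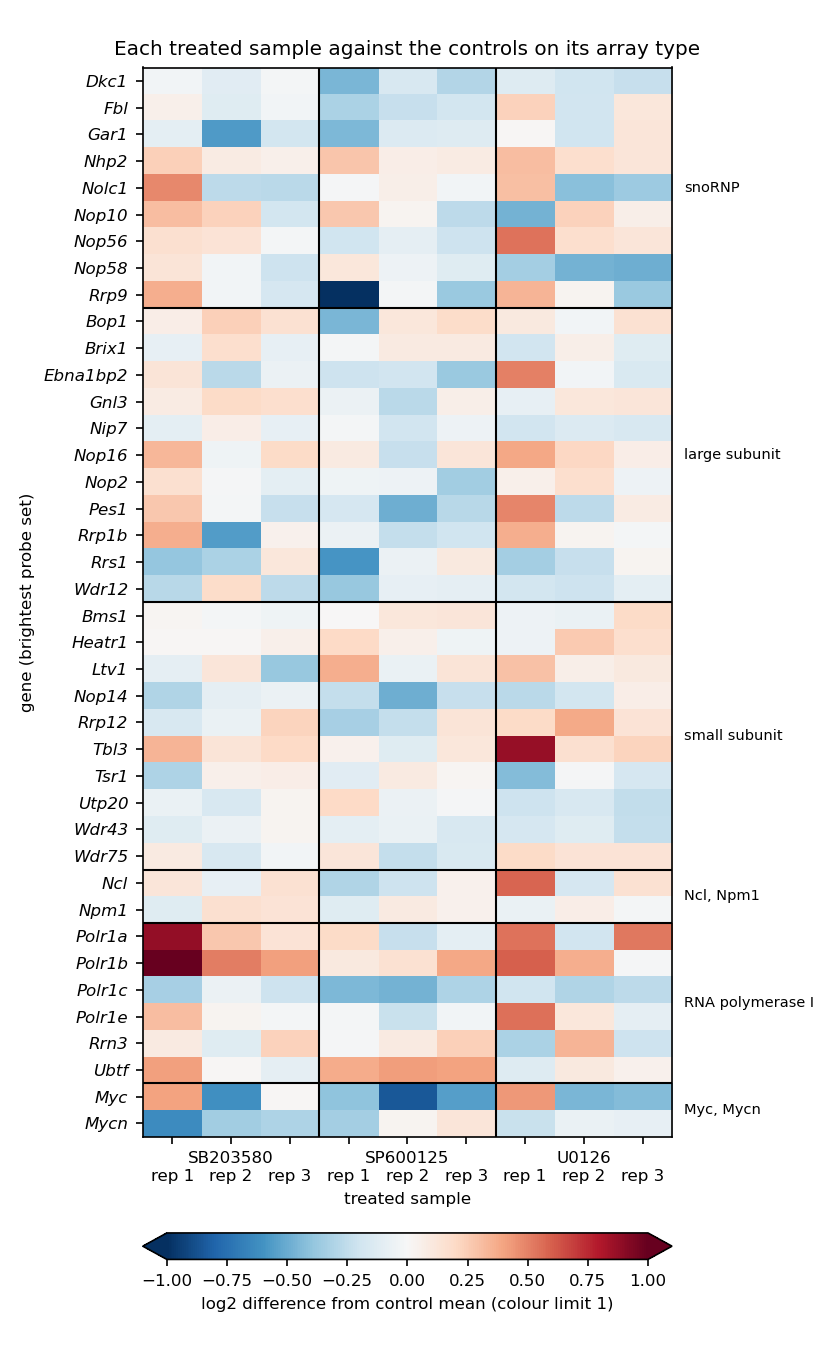
Log2 difference of each treated sample (columns) from the mean of the controls on its array type, for the 40 genes (rows, grouped by role); blue is lower and red higher, and the colour is limited at 1. Rows of a single colour within an inhibitor number 12, 20 and 16 of 40, among them Nop58 with U0126 (blue), Polr1b with SB203580 (red), Polr1c with SP600125 (blue) and Ubtf with SP600125 (red).

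The large subunit factors include Pes1, Bop1 and Wdr12, which act as 1 complex on the large subunit precursor. Pes1 read 659.6, 3316 and 3307 in the controls, 796, 3268 and 2821 under SB203580, 586, 2355 and 2725 under SP600125, and 934, 2771 and 3499.8 under U0126. The SP600125 samples lay below the controls on both array types, while the U0126 samples lay on either side. The change with SP600125 was -0.31 ± 0.15 (95% interval -0.63 to 0.00, adjusted p = 0.586), and the other Pes1 probe set gave -0.24 ± 0.27. The other members of the complex gave -0.06 ± 0.16 (Bop1) and -0.18 ± 0.16 (Wdr12) with SP600125. Ebna1bp2, which binds an early large subunit precursor, gave -0.26 ± 0.13.

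Rrs1 helps to load the 5S particle, and the size of its difference varied with single samples. Rrs1 read 13686, 4917 and 6902 in the controls, 10408, 4665 and 6279 under SB203580, 9097, 5593 and 6264 under SP600125, and 10835, 4979 and 5942 under U0126. All treated samples of replicate 1 were below their control, and the 430 2.0 samples overlapped. The change with SB203580 was -0.20 ± 0.15, and leaving out 1 sample at a time moved it as far as -0.38 without control replicate 2 and -0.08 without control replicate 1. The other Rrs1 probe set gave 0.06 ± 0.17.

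Nip7 and Brix1 are assembly factors of the same pathway. Nip7 read 1844, 4787 and 4912 in the controls, 1723, 5099 and 4588 under SB203580, 1822, 4257 and 4688 under SP600125, and 1615, 4400.3 and 4337 under U0126. The U0126 samples were all below the controls, with a change of -0.16 ± 0.11 (adjusted p = 0.575). Brix1 read 3718, 7964 and 6971 in the controls, 3513, 8399.8 and 7059 under SB203580, 3656, 7926 and 7904 under SP600125, and 3251, 7764 and 6859 under U0126. Its groups overlapped, and its changes lay between -0.08 and 0.05. Over the 11 large subunit genes the medians were 0.00, -0.15 and 0.06 with SB203580, SP600125 and U0126. With SP600125, 10 of the 11 had a fitted value below 0, beside 50.3% of all genes tested. In its replicates 1, 2 and 3, 10, 9 and 6 of the 11 read below the control mean.

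The small subunit factors belong to the processome around the U3 snoRNP (Tbl3, Utp20, Wdr43, Wdr75, Heatr1, Bms1, Nop14) or act on later precursors (Rrp12, Tsr1, Ltv1). Tbl3 read 460.1, 1054 and 1120.0 in the controls, 588, 1192 and 1249.5 under SB203580, 473, 998 and 1178 under SP600125, and 851, 1214 and 1269 under U0126. The SB203580 and U0126 samples lay above the controls on both array types. The change was 0.23 ± 0.17 with SB203580 and 0.42 ± 0.17 with U0126 (adjusted p = 0.331), and these became 0.13 without control replicate 1 and 0.21 without U0126 replicate 1. Nop14 read 651, 884 and 1284 in the controls, 528, 1002 and 1024 under SB203580, 549, 755 and 905 under SP600125, and 539, 939 and 1116 under U0126. With SP600125 its change was -0.32 ± 0.18 (adjusted p = 0.682), with 1 SP600125 sample between the controls, and -0.19 without control replicate 3.

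Bms1, a GTPase of the processome, showed how little several of these genes differed. Bms1 read 43110.0, 18384 and 16527 in the controls, 43747, 17189.7 and 17007 under SB203580, 43205, 18853 and 18908 under SP600125, and 41739.7, 16603 and 19882 under U0126. Its changes were -0.01 ± 0.09, 0.08 ± 0.09 and 0.02 ± 0.09. Over the 10 small subunit genes the medians were -0.04, 0.01 and 0.08. Heatr1, Wdr75, Utp20, Wdr43, Tsr1, Ltv1 and Rrp12 had fitted values between -0.21 and 0.23 over the 3 inhibitors.

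Nucleolin (Ncl) and nucleophosmin (Npm1) are abundant nucleolar proteins that bind ribosomal RNA and shuttle its particles. Ncl read 4719, 15475 and 19864 in the controls, 5121, 16576 and 19490.3 under SB203580, 3824, 15164 and 17978 under SP600125, and 7066, 15575 and 19498 under U0126. Its groups overlapped. The change with U0126 was 0.19 ± 0.15 and rested on replicate 1, without which it was -0.02; with SP600125 it was -0.16 ± 0.15, and -0.01 without SP600125 replicate 1. The other 4 Ncl probe sets ran from -0.28 to 0.11 with U0126 and from -0.40 to 0.17 with SP600125. Npm1 read 10964, 29910.0 and 33440.1 in the controls, 10079, 35346 and 34959.5 under SB203580, 10082, 33703 and 32511 under SP600125, and 10469, 33187 and 31107 under U0126. Its changes were 0.06 ± 0.09, 0.00 ± 0.09 and -0.01 ± 0.09, with every 95% interval between -0.19 and 0.25.

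The RNA polymerase I genes held the largest difference seen with SB203580. Polr1b encodes the second largest subunit of the enzyme. Polr1b read 397, 1193 and 1281 in the controls, 828, 1767 and 1650.0 under SB203580, 425, 1371 and 1628 under SP600125, and 609.9, 1586 and 1229 under U0126. The SB203580 samples were the highest on both array types. The change was 0.65 ± 0.18 (95% interval 0.27 to 1.03, adjusted p = 0.158), and stayed between 0.46 and 0.74 over 21 settings. Polr1a, the largest subunit, gave 0.43 ± 0.20 with SB203580 (adjusted p = 0.516), and 0.28 without SB203580 replicate 1. Its other 2 tested probe sets gave -0.01 ± 0.28 and -0.38 ± 0.28. The brightest one read 478, 862 and 765 in the controls and 890.4, 979 and 898 under SB203580. It read 547.2, 692.5 and 757.5 under SP600125 and 698.5, 708.5 and 1180.9 under U0126.

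Polr1c, a subunit shared with RNA polymerase III, pointed the other way. Polr1c read 1791, 4844 and 5493 in the controls, 1418, 4957 and 4446 under SB203580, 1311, 3728 and 4161 under SP600125, and 1559, 4175 and 4312 under U0126. The SP600125 and U0126 samples lay below the controls on both array types. The change was -0.41 ± 0.11 with SP600125 (95% interval -0.65 to -0.17, adjusted p = 0.176) and -0.25 ± 0.11 with U0126 (adjusted p = 0.391). The other Polr1c probe set gave -0.29 ± 0.12 with SP600125 and -0.03 ± 0.12 with U0126.

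Ubtf bends and opens the ribosomal DNA for the polymerase, and Rrn3 carries the polymerase to it. Ubtf read 1699, 2208 and 1852 in the controls, 2262, 2036 and 1904 under SB203580, 2194, 2701 and 2681 under SP600125, and 1550.5, 2171 and 2082 under U0126. The SP600125 samples were above the controls on both array types, by 0.37, 0.42 and 0.40 on the log2 scale. The fitted change of 0.40 ± 0.14 had an adjusted p of 0.368, and the other Ubtf probe set gave -0.49 ± 0.37, the opposite sign. Rrn3, with its 2 E-boxes, gave 0.07 ± 0.18, 0.11 ± 0.18 and -0.06 ± 0.18, and Polr1e gave 0.11 ± 0.19, -0.09 ± 0.19 and 0.19 ± 0.19. Over the 6 genes the medians were 0.11, 0.03 and 0.10 with SB203580, SP600125 and U0126.

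Myc and Mycn are related transcription factors that bind the E-box. Myc read 432, 728 and 1147 in the controls, 574, 596 and 924 under SB203580, 324, 502 and 620.0 under SP600125, and 585, 661 and 676 under U0126. The SP600125 samples lay below the controls on both array types, although the controls themselves were far apart. The change with SP600125 was -0.60 ± 0.24 (95% interval -1.10 to -0.10, adjusted p = 0.451), and -0.34 without control replicate 3, the highest sample. Mycn read 1777, 3447 and 3656 in the controls, 1145, 2774 and 2867 under SB203580, 1399, 3618 and 3860.3 under SP600125, and 1525, 3381 and 3354 under U0126. Its lowest samples were those with SB203580, with a change of -0.43 ± 0.12 (95% interval -0.68 to -0.18, adjusted p = 0.164) that stayed between -0.49 and -0.33 over 21 settings. Its other tested probe set gave -0.30 ± 0.46. With SP600125, Mycn gave -0.06 ± 0.12.

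The 7 genes with an E-box in the promoter window printed above showed small differences under the same inhibitors. With SP600125, where Myc read lowest, they ran from -0.31 (Pes1) to 0.14 (Ltv1). With SB203580, where Mycn read lowest, they ran from -0.11 (Ltv1) to 0.07 (Rrn3). None of the 7 had an unadjusted p under 0.05, beside 10.2% of all genes tested with SP600125 and 11.4% with SB203580. The nearest was Pes1 with SP600125, at an unadjusted p of 0.05 in limma's test. Whether these genes follow Myc or Mycn was not tested. With U0126, the 14 genes with an Ets motif ran from -0.25 (Polr1c) to 0.20 (Nhp2), with values of both signs. Of the 14, Polr1c and Nhp2 had an unadjusted p under 0.05, beside 13.4% of all genes tested. Motifs of these 2 are printed above, as are those of Nip7, which gave -0.16, and Gar1, which gave -0.03.

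**Figure D3:**
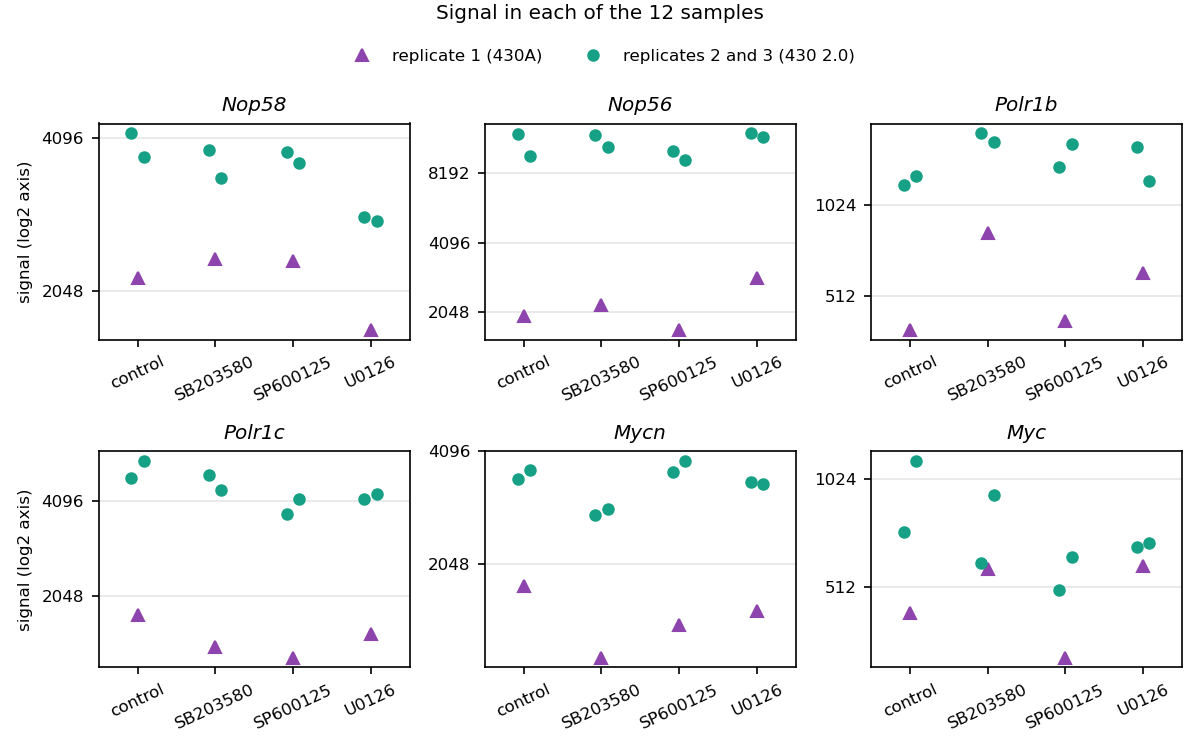
Signal of 6 genes (panels, log2 axis) in each of the 12 samples; triangles are replicate 1 on 430A arrays and circles are replicates 2 and 3 on 430 2.0 arrays, which are comparable only with their own kind. The U0126 samples are the lowest for Nop58 and the SB203580 samples are the highest for Polr1b and the lowest for Mycn on the 430 2.0 arrays, while the controls of Myc lie far apart.

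The inhibitors were also compared with each other. These comparisons use none of the control samples as a group, but they share treated samples with the comparisons above. Limma's test called 0 of 40 genes between SB203580 and SP600125, where 1.06% of all genes were called, 0 between SB203580 and U0126, where 1.96% were, and 0 between SP600125 and U0126, where 4% were. At an unadjusted p under 0.05 the counts were 9, 2 and 9 of 40, beside 13.2%, 15.8% and 20.5% of all genes. The median differences were 0.11, 0.01 and -0.13, beside 0.01, -0.05 and -0.06 over all genes tested.

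The SP600125 and U0126 samples held the pair of genes nearest to the threshold, both of the box C/D particle. Nop56 was lower with SP600125 than with U0126, by -0.44 ± 0.12 (95% interval -0.69 to -0.19, adjusted p = 0.0542). Nop58 differed in the opposite direction, by 0.42 ± 0.11 (0.18 to 0.65, adjusted p = 0.0563). Neither gene's groups overlapped on either array type. Ubtf gave 0.39 ± 0.14 and Pes1 -0.42 ± 0.15 in the same comparison, with adjusted p-values of 0.154 and 0.146, and Pes1 was at -0.27 with arrays centred on their medians. The other Nop56 probe set gave -0.40 ± 0.13 (adjusted p = 0.108) and the other Pes1 probe set 0.04 ± 0.27.

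Between SB203580 and SP600125 the smallest adjusted p was 0.215, for Mycn, which read lower with SB203580 by -0.37 ± 0.12. Dkc1, Nop56, Pes1, Gnl3, Polr1a and Polr1b had values from 0.23 to 0.47 in that comparison, all with SB203580 above SP600125. In all, 10 of 40 genes lay wholly above in the SB203580 samples, beside 15.1% of all genes, and 1 lay wholly below, beside 14.3%. Gnl3 moved from 0.23 to 0.13 without SP600125 replicate 2 and Dkc1 from 0.25 to 0.16 without SP600125 replicate 1. Polr1b moved from 0.44 to 0.28 without SB203580 replicate 1 and to 0.27 without SP600125 replicate 1. Between SB203580 and U0126 only Nop58 (0.39 ± 0.11, adjusted p = 0.107) and Mycn (-0.31 ± 0.12, adjusted p = 0.26) had an unadjusted p under 0.05.

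**Figure D4:**
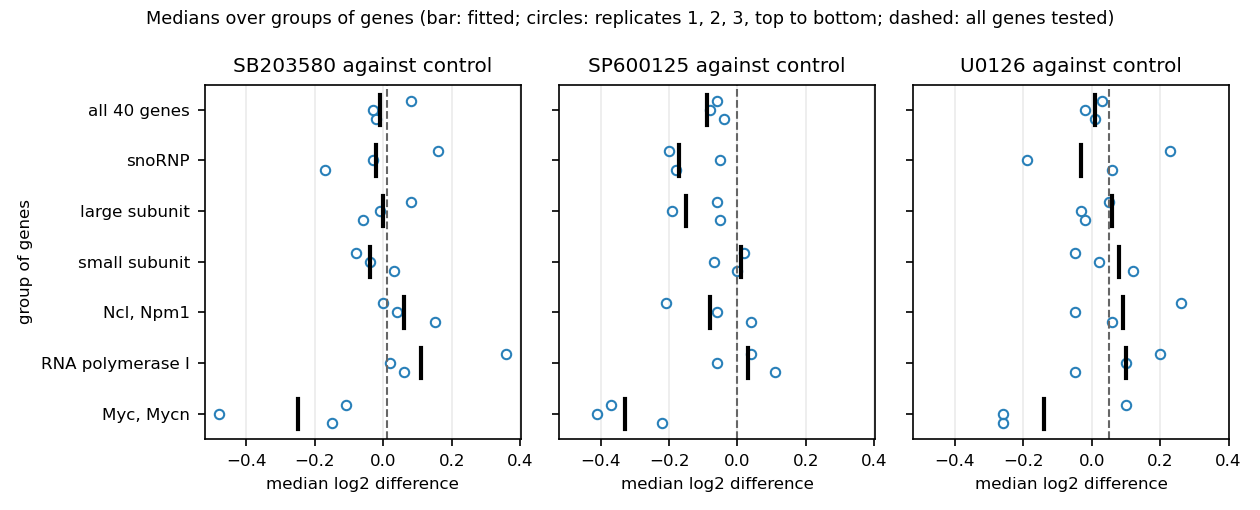
Median log2 difference from control over all 40 genes and over each role, for each inhibitor; bars are fitted medians, circles are the medians of replicates 1, 2 and 3 from top to bottom, and the dashed line is the fitted median of all genes tested. The medians of the 40 genes lie at -0.01, -0.09 and 0.01, with SP600125 the replicate medians of all 40 genes, the snoRNP genes and the large subunit genes are all below 0, and with U0126 the replicates of every group lie on both sides of 0.

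Other probe sets of the same genes gave a limited check. The 40 genes had 82 single-gene probe sets, of which 75 passed the filter, and 27 genes had several. All probe sets of a gene had the same sign for 15 of 27 genes with SB203580, 18 with SP600125 and 13 with U0126. With U0126, the widest gap between probe sets of a gene was 1.66 on the log2 scale, for Bop1. Of the 75, limma's test called 1 between SP600125 and U0126, where 3.05% of all single-gene probe sets were called, and none in the other 5 comparisons. In those 5, between 4 and 12 of the 75 had an unadjusted p under 0.05. Of all genes tested, read through the brightest probe set, 10.2% to 15.8% did. The shares of all single-gene probe sets called there were 0.435% with SB203580, 0.617% with SP600125, 0.501% with U0126, 0.825% between SB203580 and SP600125, and 1.47% between SB203580 and U0126.

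The called probe set was a dimmer one of Nolc1. It read 61, 502 and 472 in the controls, 122, 533 and 609 under SB203580, 61.5, 442 and 324 under SP600125, and 221, 552 and 856 under U0126. The U0126 samples were above the SP600125 samples on both array types. The difference was -1.11 ± 0.28 (adjusted p = 0.0388), but the brightest Nolc1 probe set gave 0.17 (adjusted p = 0.635) and the remaining one gave -0.18, so the probe sets disagreed in sign. The call was lost under 14 of 21 alternative settings.

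Further genes of the pathway were counted from lists drawn up by name. Against control, limma's test called 0 of 36 other small subunit factors, 0 of 36 other large subunit factors and 0 of 6 other RNA polymerase I genes with each inhibitor. Together, 4, 5 and 9 of these 78 genes had an unadjusted p under 0.05 with SB203580, SP600125 and U0126, beside 11.4%, 10.2% and 13.4% of all genes tested. The medians of the 78 genes were 0.00, -0.03 and -0.06. None of 13 cytosolic ribosomal protein genes, 17 RNA polymerase III genes or 7 tested Myc network genes was called either, with at most 2 of any of these lists under an unadjusted p of 0.05 against control. The ribosomal protein medians were 0.06, -0.03 and 0.16.

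A single gene of these lists passed the test between inhibitors, in the comparison of SP600125 with U0126. It was 1 of the 78 other biogenesis genes, beside 4% of all genes tested. Riok2, a kinase of late small subunit maturation, read 304, 2584 and 2707 in the controls, 333, 2540.2 and 3315 under SB203580, 216, 2048 and 2644 under SP600125, and 318, 3905 and 3796 under U0126. The SP600125 samples were below the U0126 samples on both array types. The difference was -0.66 ± 0.16 (adjusted p = 0.0336), but the call was lost under 7 of 21 alternative settings, among them leaving out SP600125 replicate 1 or 2, or U0126 replicate 2 or 3.

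Several facts of the whole series stand beside these values. Dusp6 and Dusp4, phosphatase genes that ERK activity switches on, fell with U0126, by fitted log2 changes of -2.26 ± 0.29 (adjusted p = 0.00146) and -2.12 ± 0.23 (adjusted p = 0.000526). Of the 6 listed ERK output genes, these were the ones called with U0126; 4 had values below 0 and 2 above. Dusp4 also fell with SP600125, by a fitted -1.41 ± 0.23 (adjusted p = 0.00697). All 25 listed markers of trophectoderm, inner cell mass and primitive endoderm passed the signal filter. The median of 9 primitive endoderm markers was -0.52 with SB203580, -1.33 with SP600125 and -0.60 with U0126. Of the 9, 7 had values below 0 with SB203580, 8 with SP600125 and 9 with U0126. Their summed signal on 430 2.0 arrays was 33773 to 33781 in the controls and 26351 to 29131 with SB203580. It was 24907 to 26103 with SP600125 and 24065 to 30369 with U0126. Dab2 was the brightest of the 9 in every group, with a mean of 14653.3 in the controls. The Dab2 mean was 12600.0 with SB203580, 14587.9 with SP600125 and 15085.2 with U0126. All 9 trophectoderm markers had values below 0 with SB203580 (median -0.20), and their summed signal was 95166 to 98284 against 105790 to 112209 in the controls. The median of 7 inner cell mass markers was 0.80 with U0126, with 6 above 0 and 1 below, at -0.34. Markers of oocytes, cumulus cells, uterine epithelium and blood summed to between 247 and 831, with 3 of each list above the filter. The part of cell make-up in the values of the ribosome biogenesis genes was not tested.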

How the data were processed

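The deposited tables hold 1 signal intensity per probe set, not log-transformed. The authors scaled each array: the mean with 2 percent trimmed at each end lay between 499.79 and 499.93 on all 16 arrays. How the probes were summarised, and with which software, is not given in the sources used here. Replicate 1 joined its 430A and 430B arrays by label number. The log2 of signal plus 12.6 was fitted with limma 3.58.1 in R 4.3.3, with the 4 groups and the array type as a fixed block, over 27022 of 45037 probe sets whose mean on 430 2.0 arrays reached the 40th percentile. Moderated two-sided p-values (intensity trend, 7 residual and 9.7 prior degrees of freedom) were Benjamini-Hochberg adjusted over these probe sets, with calls under 0.05. Fold changes are on the log2(signal + 12.6) scale, and errors are standard errors (n = 3). The number of arrays limits the precision. The script was tested on simulated data.

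Genes came from the platform annotation, counting probe sets that name 1 gene. Values in every sample are given for called genes and for the brightest of each role. They are also given for the gene of each role with the largest absolute moderated t against control, and for Myc and Mycn. Fbl, Nop56, Rrp9, Polr1a, Ubtf and others with an unadjusted p under 0.05 in some comparison were added after their values were seen. Fbl is given by its changes alone. The Ets motif search was also added after values were seen. Other lists name only called genes, and Dusp6, Dusp4 and Spry4 were read as a check of U0126; Spry4 gave -1.80 (adjusted p = 0.0917). The members and lists were chosen with earlier results of these data known.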

Additional observations from a re-analysis of the deposited data

Results flagged for a closer look

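A dimmer probe set of Nolc1 differed between SP600125 and U0126 by -1.11 (log2) in a test of the difference itself. The call was kept under 7 of 21 alternative settings and lost under 14, with values from -1.39 to -0.83 and adjusted p-values in limma's test from 0.0177 to 0.156.

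Riok2 differed between SP600125 and U0126 by -0.66 (log2) in the same test. The call was kept under 14 of 21 alternative settings and lost under 7, with values from -0.79 to -0.51 and adjusted p-values from 0.0246 to 0.141. It was lost on leaving out SP600125 replicate 1 or 2, or U0126 replicate 2 or 3.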

How the results depend on the processing

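Of 132 counts of called genes under alternative settings, 128 stayed at 0. The exceptions were all between SP600125 and U0126: 1 with the added constant 4 times as large (Nop56), 2 with a replicate block (Nop56 and Nop58), 1 counting any probe set (Nolc1), and 0 to 1 on leaving out 1 replicate (Nop56 without control replicate 2). Same-numbered samples on 430 2.0 arrays correlated by 0.018 to 0.088 in their deviations from group means. Little deviation was thus shared by number, and the block is given only here. The correlations do not show whether same-numbered samples were handled together.

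Of 120 medians of the 40 genes, 104 moved by less than the spread between replicates. With arrays centred on their medians, the median was -0.14 for U0126 against control, 0.16 for SB203580 against U0126 and 0.03 for SP600125 against U0126. Without the less specific probe sets (names with _x or _s) the U0126 value was 0.05, SB203580 against SP600125 gave 0.16, and SB203580 against U0126 gave -0.02. With all probe sets of a gene, SP600125 gave -0.14, U0126 -0.03, and SB203580 against U0126 -0.02. The 430 2.0 arrays alone gave -0.01 for SB203580 against U0126. Leaving out 1 replicate gave -0.10 to -0.04 for SP600125, -0.02 to 0.07 for U0126, and -0.05 to 0.03 for SB203580 against U0126.

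Ncl with U0126 reversed to -0.01 on the 430 2.0 arrays alone and ran from -0.02 to 0.36 on leaving out 1 replicate. Npm1 with SB203580 ran from -0.01 to 0.12. The causes were not tested. Changes under the intervals given above cannot be seen with 3 samples a group.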
